A study of Mus musculus with 36 samples.

Results

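A single dose of morphine was compared with saline in the striatum of 129P3/J mice, an inbred strain, 4 hours after the injection. The comparison rests on 6 of the 36 arrays of the series, 3 of acute morphine and 3 of saline, and covers the 25704 of 45037 probe sets other than controls (57.1%) whose signal intensity was above 99.7 in 3 or more of these arrays. The animals were adult males aged 8 to 10 weeks. Mice of both groups were injected subcutaneously with saline 3 times a day for 4 days, so that all animals had been handled and injected alike before day 5. On day 5 the acute group received 20 mg/kg of morphine and the control group saline once more. Each array carried the pooled RNA of 3 mice, and a group stands for 9 mice. The tissue held the rostral caudate/putamen together with the nucleus accumbens. The other groups of the series are acute morphine and saline in C57BL/6J, DBA/2J and SWR/J mice and chronic morphine in all 4 strains. P-values measure the spread between pools of mice, not between single animals.

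Morphine acts on the mu opioid receptor, which lowers cyclic AMP through inhibitory G proteins and damps the firing of the cells that carry it. In the striatum that receptor sits on medium spiny neurons, the GABA-releasing projection cells that make up most of its neurons, and on the terminals that reach them. Given to the whole animal, morphine also activates the hypothalamic-pituitary-adrenal axis, which releases glucocorticoids into the blood. In brain cells glucocorticoids bind the receptor encoded by Nr3c1, which moves to the nucleus and raises or lowers the transcription of target genes, among them Fkbp5, Tsc22d3 and Sgk1.

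Values are log2 of an Affymetrix array intensity that the authors had normalized between arrays, so that a difference of 1 is a 2-fold difference. Where several detected probe sets target a gene, the brightest on average stands for it, which gave 12799 genes. A probe set was called where limma, fitted to all 36 arrays with 12 group means, gave an adjusted p under 0.05 over the 25704 probe sets. Intensities of different probe sets are not set against each other, since each probe set has its own sensitivity.

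The tissue label was checked first. The 20 measured markers of medium spiny neurons had a mean log2 intensity of 10.95 to 11.00 on the saline arrays and 10.77 to 10.89 on the acute arrays. Penk, the enkephalin precursor, lay between 12.06 and 12.39 on the 6 arrays, Drd1, a dopamine receptor of the direct pathway, between 10.25 and 10.73, and Drd2, the dopamine receptor of the indirect pathway, between 10.14 and 10.39. Markers of tissue that borders the striatum varied more. Slc17a7, the vesicular glutamate transporter of cortical neurons, read 8.51, 10.07 and 9.96 in saline replicates 1 to 3 and 9.08, 10.15 and 10.06 in the acute replicates. The first array of each group was thus the low one, as it was for the cortical transcription factor Neurod6, at 6.00 in saline replicate 1, 7.07 in acute replicate 1 and 7.79 to 8.10 elsewhere. Ttr, the transthyretin gene of the choroid plexus, ranged from 9.19 in saline replicate 1 to 12.50 in saline replicate 3. Saline replicate 3 stood apart in another way. The poly-A transcripts that are added to each RNA before labelling gave it a mean log2 score, centred over the series, of -3.58, whereas the other 5 arrays lay between 0.059 and 0.244. Pairs of the 6 arrays correlated at a Pearson r of 0.968 to 0.988 over probe sets, which are not independent replicates. The called genes and the medians of 3 lists are therefore also given without saline replicate 3 and without both arrays numbered 1.

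Of the 25704 probe sets, 4 were called (0.0156%), all of them higher after acute morphine and none lower. Fkbp5 rose most clearly. It encodes a co-chaperone of Hsp90 that lowers the affinity of the glucocorticoid receptor for its hormone. Its log2 intensity was 8.87, 9.09 and 9.12 in the saline replicates and 9.97, 9.89 and 9.90 in the acute replicates, a difference of 0.90 (SE 0.092, 1.86-fold, limma adjusted p = 4.47e-06). The acute arrays lay close together and well above every saline array. A second Fkbp5 probe set of lower signal read 7.34, 7.42 and 7.57 against 8.25, 8.03 and 8.22 and differed by 0.72 (SE 0.15), which did not pass (adjusted p = 0.0969).

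Cdkn1a, which encodes the cyclin-dependent kinase inhibitor p21 and is a classical target of p53, rose by the largest amount of the 4. It read 7.42, 7.98 and 7.68 in saline and 8.72, 8.99 and 8.79 after morphine, a difference of 1.14 (SE 0.18, 2.20-fold, adjusted p = 0.0136). The lowest acute array lay well above the highest saline array. A second, dimmer Cdkn1a probe set lay at 6.80 to 7.15 on all 6 arrays and differed by 0.15 (SE 0.25). With the mean over both probe sets the difference was 0.64 and did not pass (adjusted p = 0.0772).

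Camk1g encodes calcium/calmodulin-dependent protein kinase I gamma, a membrane-anchored kinase of neurons that responds to calcium entry. It read 8.70, 8.80 and 8.67 in saline and 9.38, 9.29 and 9.29 after morphine, a rise of 0.60 (SE 0.10, 1.51-fold, adjusted p = 0.0349). Smim3, a small integral membrane protein, read 7.42, 8.01 and 7.69 in saline and 8.46, 8.38 and 8.38 after morphine and rose by 0.70 (SE 0.13, 1.63-fold, adjusted p = 0.0367). Acute arrays agreed closely for both genes, and for Smim3 most of the spread was among the saline arrays.

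**Figure D1:**
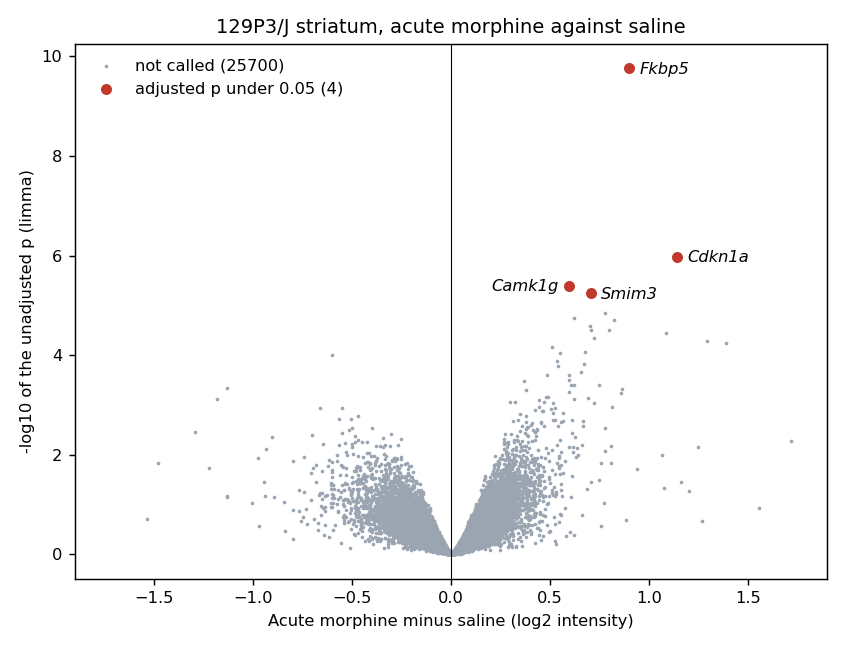
Difference between acute morphine and saline (log2 intensity, x axis) against the negative log10 of the unadjusted p from limma (y axis) for the 25704 detected probe sets of 129P3/J striatum, each a point. The 4 called probe sets, Fkbp5, Cdkn1a, Camk1g and Smim3, lie on the right, and no probe set on the left is called.

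Fkbp5 was called whichever of the 6 arrays was left out, with a difference of 0.82 to 0.94 and an adjusted p of 2.53e-05 to 0.000201. The other 3 depended on single arrays. Cdkn1a passed without saline replicate 2 (adjusted p = 0.00579) or acute replicate 1 (0.0499) and missed the threshold without saline replicate 1 (0.339), saline replicate 3 (0.107), acute replicate 2 (0.108) or acute replicate 3 (0.0776). Smim3 passed only without saline replicate 2 (0.00485), at 0.125 to 0.821 otherwise, and Camk1g ranged from 0.0502 without saline replicate 2 to 0.403 without acute replicate 1. Their differences stayed positive throughout, at 1.00 to 1.28 for Cdkn1a, 0.56 to 0.85 for Smim3 and 0.56 to 0.64 for Camk1g. Without both arrays numbered 1, Fkbp5 alone was called (difference 0.79, adjusted p = 0.00325). When only the 6 arrays of 129P3/J entered the fit, none was called in limma, the smallest adjusted p being 0.509.

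The stretch of genome just before the start of a gene is shown for Fkbp5 and Cdkn1a, the pair with the smallest adjusted p, because both belong to lists of known transcription factor targets described below. Each window holds the 250 bases upstream of an annotated start in the RefSeq table (GRCm38.p6), written 5′ to 3′ along the strand of the gene, at chr17:28486150-28486399 (minus strand) for Fkbp5 and chr17:29090729-29090978 (plus strand) for the upstream one of the 2 Cdkn1a starts in that table. Capitals mark the GC box GGGCGG in Fkbp5 and matches to a single arm of the p53 response element in Cdkn1a.
Fkbp5: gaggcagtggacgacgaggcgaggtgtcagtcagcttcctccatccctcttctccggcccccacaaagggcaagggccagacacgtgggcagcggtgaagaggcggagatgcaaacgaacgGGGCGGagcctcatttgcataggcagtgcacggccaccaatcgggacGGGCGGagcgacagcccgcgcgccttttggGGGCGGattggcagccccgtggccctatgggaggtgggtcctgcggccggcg
Cdkn1a: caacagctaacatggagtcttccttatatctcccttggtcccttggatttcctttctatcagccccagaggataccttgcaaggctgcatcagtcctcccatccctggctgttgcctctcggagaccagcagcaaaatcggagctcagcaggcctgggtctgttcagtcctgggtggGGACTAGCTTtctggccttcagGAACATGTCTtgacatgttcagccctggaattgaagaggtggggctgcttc

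The Fkbp5 window held 3 GC boxes, which begin 129, 82 and 52 bases before the start. GC boxes occur in 32.7% of the 32851 promoter windows of the same length. The Cdkn1a window held 2 such p53 arms, 73 and 51 bases before that start, and 7.13% of all windows hold at least 1. Neither window, nor that of the downstream Cdkn1a start or of Camk1g, contained the glucocorticoid response element spelled GNACANNNTGTNC, found in 0.387% of windows, or its single arm AGAACA, found in 16.1%. The window of the downstream Cdkn1a start held 0 p53 arms and 2 GC boxes, 104 and 46 bases before that start. Both strands were searched. A match is a string of letters and not a measured binding site, and no match says only that these letters are not in this window.

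Glucocorticoid-responsive genes had the highest median difference among the lists with 10 or more measured genes. Of 29 measured members, 24 lay higher and 5 lower after acute morphine, with a median difference of 0.24, against 0.015 over all 12799 genes. Fkbp5 was the only member called. In 11 members (37.9%) all 3 acute arrays exceeded all 3 saline arrays and in none was the order the opposite, whereas over all genes 7.41% had acute above saline and 3.47% acute below saline. The list mean was 9.03, 9.16 and 9.19 in the saline replicates and 9.40, 9.38 and 9.41 in the acute replicates. Fkbp5, Tsc22d3, Sgk1 and other members had been named by the study from these same arrays, so the list is not independent evidence of its direction. The median was 0.23 without saline replicate 3, 0.17 without saline replicate 1 and 0.20 without both arrays numbered 1.

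Other members showed the same separation of the groups without passing the test. Tsc22d3, which encodes the leucine zipper protein GILZ that carries part of the anti-inflammatory action of glucocorticoids, read 9.40, 9.78 and 9.79 in saline and 10.48, 10.33 and 10.49 after morphine, a difference of 0.77 (SE 0.15, adjusted p = 0.0736). A second Tsc22d3 probe set, at 7.87, 8.36 and 8.41 against 9.14, 9.19 and 8.78, gave 0.82 with the same adjusted p, the third gave 0.86 (adjusted p = 0.394), and the fourth, at 7.71 to 8.46, gave 0.21. Sult1a1, a phenol sulfotransferase, had the largest difference of the list at 1.09 (SE 0.22, adjusted p = 0.0826), from 7.38, 8.16 and 7.81 to 8.84, 8.93 and 8.84. Plin4, a coat protein of lipid droplets, differed by 0.81 (unadjusted p = 0.00109) and Pdk4, the kinase that shuts off pyruvate dehydrogenase, by 0.75 (unadjusted p = 0.0004).

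Zbtb16 encodes the zinc finger repressor PLZF. Its probe set of highest signal read 8.96, 9.30 and 10.05 in saline and 10.17, 10.23 and 10.19 after morphine, so that saline replicate 3 came close to the acute arrays, and the difference of 0.76 (SE 0.29) did not pass. A second Zbtb16 probe set read 7.68, 8.75 and 8.98 against 9.86, 9.86 and 9.85 and differed by 1.39 (SE 0.29, adjusted p = 0.105). Acute arrays were almost identical on these probe sets and the saline arrays were not. Zbtb16 had 3 detected probe sets, and the remaining one is not described here. Smaller separations were found for Klf15 (0.31), a Krüppel-like transcription factor of fuel metabolism, Txnip (0.35), an inhibitor of thioredoxin and glucose uptake, Mt2 (0.27), a metallothionein, Per1 (0.18), a clock gene, and Klf9 (0.11), another Krüppel-like factor.

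Other targets of the same receptor lay near 0. Sgk1, the serum and glucocorticoid regulated kinase, read 10.47, 10.67 and 10.45 in saline and 10.85, 10.49 and 10.62 after morphine, with overlapping groups and a difference of 0.12 (SE 0.15). Nfkbia, the inhibitor of NF-kappaB, differed by -0.06, Dusp1, a phosphatase of MAP kinases, by -0.04, and Ddit4, an inhibitor of mTORC1, by -0.07. Cebpd, a transcription factor of the acute phase, was the lowest member at -0.70 (SE 0.28, unadjusted p = 0.0181), from 7.79, 7.18 and 7.62 to 6.57, 6.60 and 7.33, with groups that overlap. Among the 8 measured receptors and partners, Nr3c1, the glucocorticoid receptor gene itself, read 9.49, 9.35 and 9.51 in saline and 9.05, 9.30 and 9.14 after morphine, a difference of -0.29 (SE 0.13, unadjusted p = 0.0324) that did not pass. The list had 0 called members, and its lowest member was the coactivator gene Ncoa1 at -0.44. In 2 of the 8 the acute arrays lay below the saline arrays and in none above, against 3.47% and 7.41% of all genes.

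**Figure D2:**
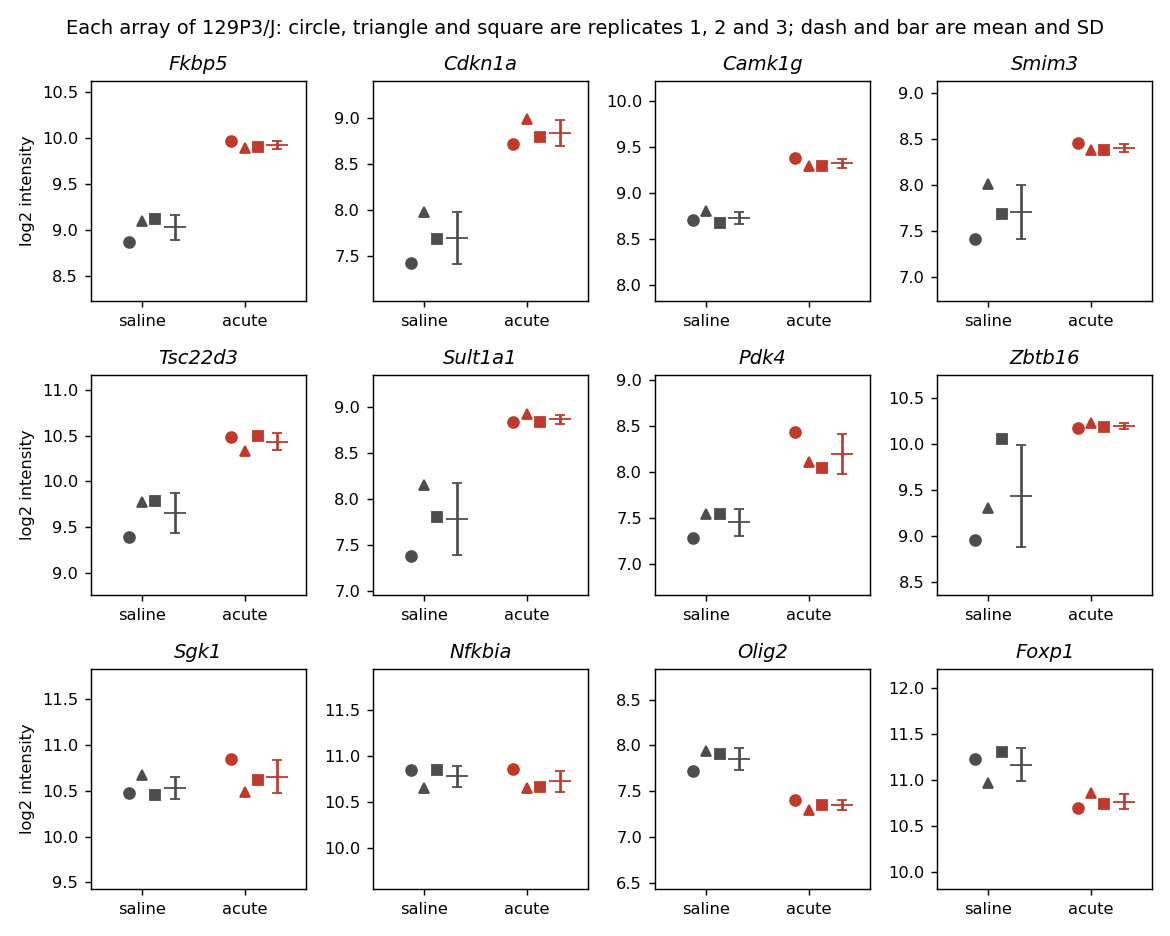
Log2 intensity (y axis) of 12 genes on each of the 6 arrays of 129P3/J, saline in grey and acute morphine in red, with replicates 1, 2 and 3 as circle, triangle and square and the mean and SD (n = 3) to the right. Every panel spans the same number of log2 units. The acute arrays lie above all saline arrays from Fkbp5 to Zbtb16, overlap with them for Sgk1 and Nfkbia, and lie below them for Olig2 and Foxp1.

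The study grouped 7 measured genes by co-expression with Tsc22d3. It used their correlation in a separate hippocampus data set of recombinant inbred strains and their similar profile after morphine on these arrays. Because of the latter step their direction here is no independent evidence. All 7 lay higher, with a median of 0.31, from 0.10 for Nt5e, an enzyme that makes adenosine, to 0.77 for Tsc22d3. In 5 of the 7 the acute arrays lay above all saline arrays, against 7.41% of all genes. Rhpn2 read 6.31, 6.89 and 6.92 in saline and 7.53, 7.31 and 7.31 after morphine (difference 0.68, adjusted p = 0.136). Sgk3, a kinase related to Sgk1 that acts on endosomes, had 3 detected probe sets with differences of 0.34, 0.49 and 0.79, all with the acute arrays above the saline arrays, and the last of them had an adjusted p of 0.079. None of the Sgk3 probe sets passed.

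The p53-responsive list held Cdkn1a and 3 further genes whose groups did not overlap. Trp53inp1, a p53-induced regulator of cell death and autophagy, read 8.22, 8.06 and 8.12 against 8.81, 8.62 and 8.62 (difference 0.55, adjusted p = 0.136). Pmaip1, which encodes the death-promoting BH3 protein Noxa, read 6.59, 6.86 and 6.73 against 7.17, 7.18 and 7.40 (0.52). Sesn1, a stress-induced sestrin, differed by 0.37. Of the 16 measured members, 12 lay higher, and the median was 0.098. In 4 of the 16 the acute arrays lay above all saline arrays and in none below, against 7.41% and 3.47% of all genes. Mdm2, which encodes the ubiquitin ligase of p53 and is among its most direct targets, differed by 0.07, and Ccng1, Bbc3 and Btg2 by 0.13 to 0.17. The list median was 0.075 without saline replicate 3 and 0.047 without both arrays numbered 1.

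Among 11 calcium/calmodulin kinase genes Camk1g was the only one called. The next, Camk2d, differed by 0.16, and Camk2a, the main kinase of the postsynaptic density, by 0.05. In 4 of the 11 the acute arrays lay above the saline arrays and in none below, against 7.41% and 3.47% of all genes. The median of the 11 was 0.084. Genes of glucose uptake and its control, 20 in number, had 8 members with acute above saline and none below, against 7.41% and 3.47% of all genes, and a median of 0.12. Besides Pdk4 these included the insulin receptor substrate gene Irs1 (0.44), Slc2a1, the glucose transporter of the blood-brain barrier and glia (0.39), and the insulin receptor gene Insr (0.30), none of which passed. In fatty acid oxidation, 23 genes had a median of 0.088, with the carnitine acyltransferase genes Crot (0.36) and Cpt2 (0.33) the highest. There 2 members lay above and 1 below without overlap, shares close to the 7.41% and 3.47% of all genes.

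Opioid and cyclic AMP genes were also examined, since they lie on the pathway that morphine enters. None of the 7 measured opioid peptide and receptor genes was called, and their median was 0.012. Oprm1, the mu opioid receptor gene and the main target of morphine, read 8.36, 7.87 and 7.66 in saline and 8.30, 7.81 and 8.23 after morphine, a difference of 0.15 within the spread of the arrays. Penk had all 3 acute arrays (12.06, 12.18 and 12.20) just below the saline arrays (12.27, 12.23 and 12.39), at -0.15 (unadjusted p = 0.0588). Of 24 effectors of opioid receptors, 1 lay above and 3 below without overlap, where all genes had 7.41% and 3.47% (median -0.023), with Gnaz, a G protein alpha subunit, lowest at -0.38. The 23 genes of cyclic AMP, PKA and CREB had 4 above and 2 below, beside the same shares of all genes, and a median of 0.0016, from Prkar2b, a regulatory subunit of PKA, at -0.32 to Crtc2, a coactivator of CREB, at 0.50.

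Immediate early genes, which neurons switch on within minutes of activity, had no called member among 21. None had acute above saline and 2 had acute below saline, against 7.41% and 3.47% of all genes. The 2 were Junb (-0.39) and Egr3 (-0.19). Fos read 8.49, 8.11 and 8.28 in saline and 8.32, 8.41 and 8.00 after morphine. Nr4a2 had the lowest difference, -0.50, with overlapping groups. No heat shock gene of 18 had groups without overlap, where the shares of all genes, 7.41% above and 3.47% below, would give few. Hspa1b, the inducible Hsp70 gene, differed by 0.24 (SE 0.17). Among 15 genes of endoplasmic reticulum stress 11 lay lower, with a median of -0.084, and Hspa5, the chaperone BiP, at -0.19 was the lowest. These medians were small and moved with the arrays used. Without saline replicate 3 they were 0.018 for immediate early genes, 0.071 for heat shock and -0.028 for endoplasmic reticulum stress, and without both arrays numbered 1 they were 0.0099, -0.013 and -0.020.

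**Figure D3:**
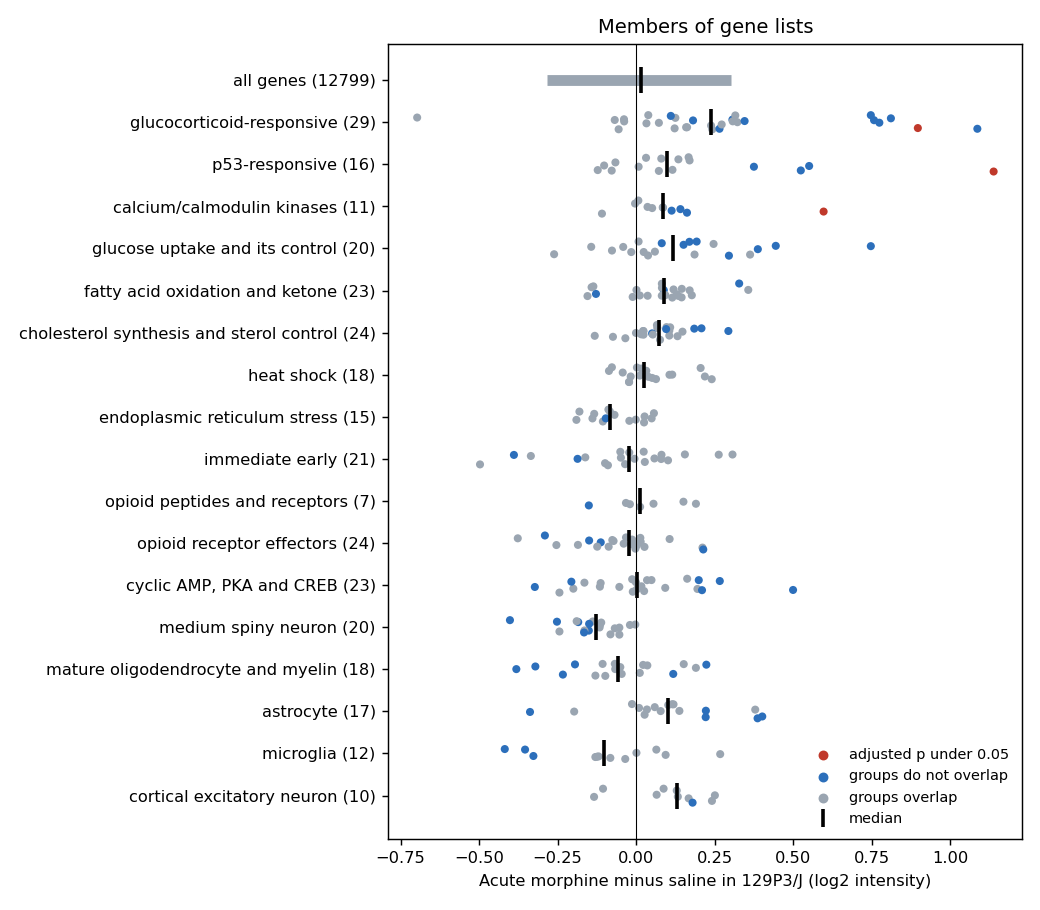
Difference between acute morphine and saline in 129P3/J (log2 intensity, x axis) for each measured member of 17 gene lists, whose sizes stand in parentheses. Red points are called, blue points have groups that do not overlap, grey points overlap, black ticks are list medians, and the grey bar gives the central 95% of all 12799 genes. The glucocorticoid-responsive list holds 6 members above 0.70 and the p53-responsive list 1, Cdkn1a at 1.14, and all medium spiny neuron markers lie left of 0.

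No gene was called lower. The smallest adjusted p on that side was 0.140, of a second probe set of Gli3, a transcription factor of the Hedgehog pathway, which read 7.64, 7.45 and 7.40 in saline and 6.95, 6.88 and 6.84 after morphine (difference -0.60). The Gli3 probe set of higher signal differed by -0.15 with overlapping groups. Olig2, the transcription factor that specifies oligodendrocytes, read 7.72, 7.94 and 7.91 in saline and 7.41, 7.30 and 7.35 after morphine, a difference of -0.50 (SE 0.15, unadjusted p = 0.00191). Olig1, its close relative, differed by 0.07 with overlapping groups. Among 11 regulators of the oligodendrocyte lineage 2 had acute arrays below saline arrays and none above, against 3.47% and 7.41% of all genes. The median of the 11 was -0.075. The 6 genes that the study assigned to neuron differentiation and nervous system development, again chosen on these arrays, had a median of -0.27. In 3 of the 6 the acute arrays lay below all saline arrays, against 3.47% of all genes. Rgma, a repulsive guidance molecule, was among the 3 (-0.45).

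Markers of medium spiny neurons were all on the low side. Each of the 20 had a negative difference, from -0.40 for Foxp1, a transcription factor of these cells, to -0.003 for Gnal, the G protein alpha subunit that couples their dopamine and adenosine receptors to adenylyl cyclase. The median was -0.13, 6 of 20 (30.0%) had acute arrays below all saline arrays, against 3.47% of all genes, and none was called. Foxp1 read 11.23, 10.97 and 11.31 in saline and 10.70, 10.86 and 10.74 after morphine (unadjusted p = 0.00294), and Drd1 read 10.73, 10.44 and 10.60 against 10.25, 10.42 and 10.35 (-0.25). The others without overlap were Penk, Rgs9, Bcl11b and Gpr6. In bulk tissue, fewer cells of a type and less RNA per cell cannot be told apart. The median was -0.14 without saline replicate 3 and -0.092 without both arrays numbered 1.

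Glial and vascular markers moved in both directions and none was called. Of 17 astrocyte genes 14 lay higher (median 0.10), led by Gjb6, a connexin (9.34, 9.56 and 9.71 against 9.89, 9.96 and 9.96), and Htra1, a secreted protease (10.59, 11.02 and 11.02 against 11.20, 11.31 and 11.29), whereas Fabp7, a fatty acid binding protein, had acute arrays below saline (-0.34). The list mean was 9.98 in saline replicate 1 and 10.16 to 10.29 on the other 5 arrays. Myelin and mature oligodendrocyte genes had 4 of 18 below and 2 above without overlap, against 3.47% and 7.41% of all genes. Ugt8a, which makes the galactolipids of myelin, read 9.77, 9.64 and 9.65 in saline and 9.38, 9.35 and 9.19 after morphine (-0.38), and Opalin, a glycoprotein of paranodal loops, differed by -0.32, while Mal, a proteolipid of compact myelin, differed by 0.22. Of 12 microglial genes 8 lay lower and 4 higher, with a median of -0.10. In 3 of them, against 3.47% of all genes, the acute arrays lay below the saline arrays, P2ry12 (-0.42), Aif1 (-0.35) and Cx3cr1 (-0.33), and the highest was the complement gene C1qa at 0.27 with none above without overlap. In the endothelial list Vwf, the von Willebrand factor, differed by 0.81 and Mfsd2a, the lipid transporter of the blood-brain barrier, by 0.72, against a median of 0.023 for its 12 genes. Of the 12, 7 lay higher and 5 lower, with Flt1 lowest at -0.21. In 2 the acute arrays lay above all saline arrays and in none below, against 7.41% and 3.47% of all genes. The part of these markers in the differences of the glucocorticoid-responsive genes was not tested.

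**Figure D4:**
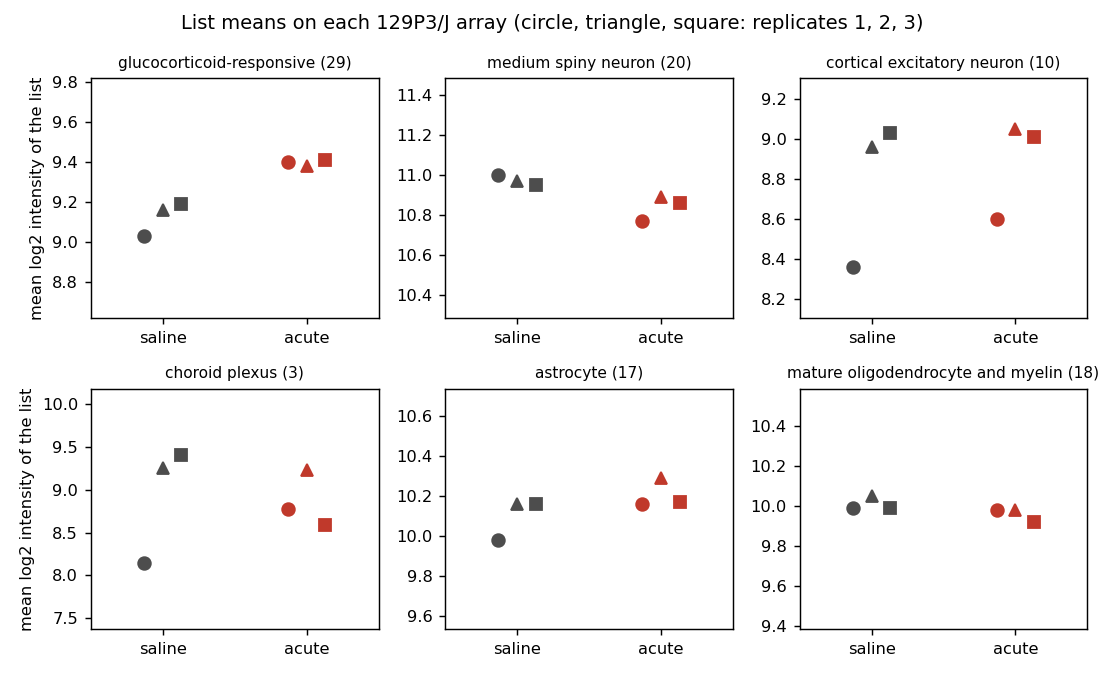
Mean log2 intensity of 6 gene lists (y axis, list size in parentheses) on each array of 129P3/J, saline in grey and acute morphine in red, with replicates 1, 2 and 3 as circle, triangle and square; the choroid plexus panel spans a wider range than the others. Glucocorticoid-responsive genes are higher and medium spiny neuron genes lower on all 3 acute arrays, and both arrays numbered 1 are low in cortical markers (8.36 and 8.60 against 8.96 to 9.05).

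Differences in cortical markers rested on single arrays. Their list had a median of 0.13, but Slc17a7 turned from 0.25 to -0.25 and Neurod6 from 0.24 to -0.41 when saline replicate 1 was left out. Ttr lay between -1.26 and 0.39 depending on which array was omitted. The part of such bordering tissue in any of the differences above was not tested.

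How far the response of 129P3/J resembled that of the other strains was asked next. For the 4 called genes the acute difference was close to the mean of C57BL/6J, DBA/2J and SWR/J. Fkbp5 differed by 0.90, against 0.94, 0.98 and 0.76 in those strains in that order, and the difference between 129P3/J and the mean of the others had a 95% interval of -0.21 to 0.22. For Camk1g the values were 0.60 against 0.66, 0.61 and 0.58 (interval -0.27 to 0.23) and for Smim3 0.70 against 0.95, 0.57 and 0.61 (-0.30 to 0.29). Cdkn1a differed by 1.14, against 1.80, 1.06 and 1.09, with an interval of -0.61 to 0.26 that leaves room for a smaller response. Tested within a strain, all 4 genes passed in C57BL/6J and DBA/2J, and in SWR/J all but Smim3 (adjusted p = 0.0751).

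No probe set differed between 129P3/J and the mean of the other strains at an adjusted p under 0.05 (limma, 0 of 25704, 0% called), and 284 (1.10%) did so at an unadjusted p under 0.05. About 5% would do so where nothing differs, so the p-values of this contrast may be too large and its intervals too wide. The absence of calls therefore does not show that the strains responded alike. Why the share was low was not tested. The smallest unadjusted p belonged to Sgk1. Its acute difference was 0.12, against 1.19, 0.60 and 0.48 in the others in the same order, so that 129P3/J lay 0.64 below their mean (95% interval -0.98 to -0.29, unadjusted p = 0.000757, adjusted p = 1.00). The other strains exceeded it in each case, yet this did not survive the correction. On the same side were Pcdhb9, a protocadherin, which differed from the others by -0.36, Cybrd1, a ferric reductase, by -0.50, and Nfkbia, at -0.06 in 129P3/J and 0.47, 0.05 and 0.13 elsewhere. On the opposite side Pllp, a proteolipid of myelin membranes, was at -0.03 in 129P3/J and -0.60, -0.38 and -0.38 in the others, Asxl3, a chromatin regulator, at 0.45 against -0.30, -0.02 and -0.05, and Gsn, the actin-severing gelsolin, at 0.19 against -0.45, -0.04 and -0.19. Set against single strains, 129P3/J again gave no called probe set in limma, with 1507 at an unadjusted p under 0.05 against C57BL/6J, 1049 against DBA/2J and 142 against SWR/J.

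**Figure D5:**
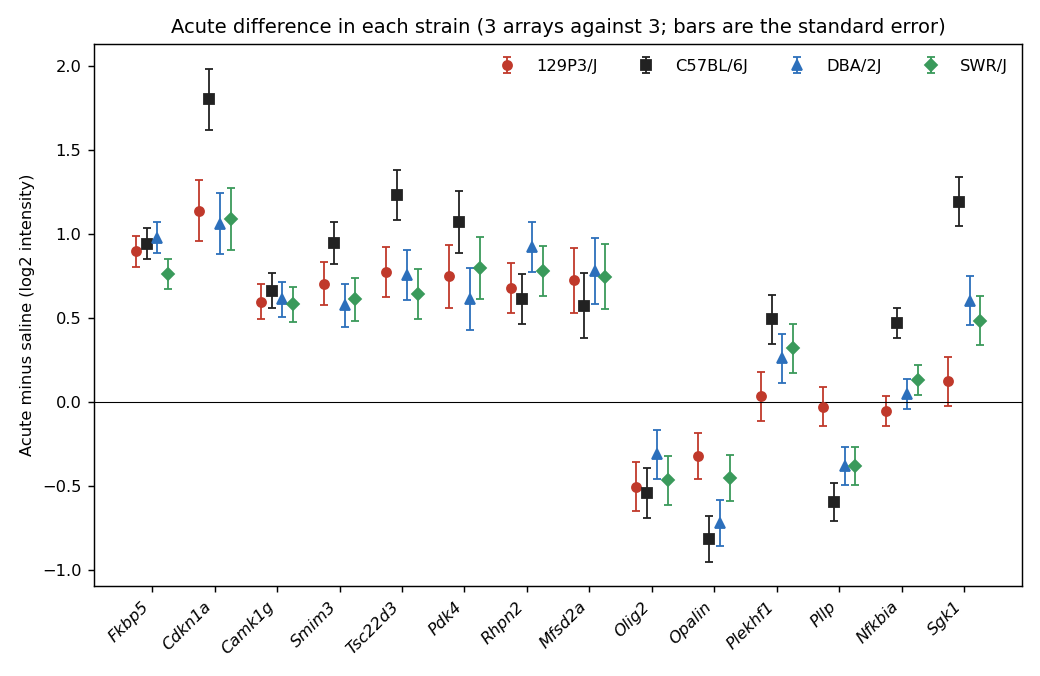
Acute minus saline (log2 intensity, y axis) of 14 genes in each of the 4 strains, 3 arrays against 3, with bars of 1 standard error from limma. For Fkbp5, Camk1g, Rhpn2 and Mfsd2a the 4 strains lie close together, while for Sgk1 129P3/J stands at 0.12 and the others at 0.48 to 1.19.

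The 824 probe sets called for the mean of the other 3 strains (3.21%, 450 higher and 374 lower) were then read in 129P3/J. Its arrays did not enter that mean, although they set which probe sets counted as detected and shared in the estimate of the spread. The sign was the same in 772 (93.7%), against 64.3% of all detected probe sets, and the median difference in 129P3/J was 0.25 for those higher elsewhere and -0.18 for those lower elsewhere, where the other strains had 0.34 and -0.40. However, arrays that share a treatment and a number deviated together across strains, in all 18 pairs of a 129P3/J array with an array of another strain (mean r 0.36 over probe sets). With the probe sets chosen on 2 replicate numbers and 129P3/J read on the third, the same sign was found in 100% of 24 probe sets for number 1, 48.5% of 1887 for number 2 and 87.5% of 48 for number 3, beside 49.9%, 47.0% and 52.6% of all detected probe sets. This reading was added after the data were seen.

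Below the threshold, 8 further probe sets had an adjusted p under 0.10, all higher. Besides those of Tsc22d3, Sgk3, Fkbp5 and Sult1a1 they include 3 genes named here after their values were seen. Aff1, a subunit of the super elongation complex, read 7.43, 7.66 and 7.49 against 8.24, 8.10 and 8.09 (difference 0.62). Kndc1, a guanine nucleotide exchange factor that restrains dendrite growth, read 8.47, 8.93 and 8.63 against 9.43, 9.39 and 9.32, a difference of 0.70 where the other strains averaged 0.29, while another Kndc1 probe set differed by -0.22 with overlapping groups. The last, a dimmer probe set of Greb1l, was above the detection threshold on the acute arrays alone, so that it had to differ to be tested, and the brighter Greb1l probe set differed by -0.11 with overlapping groups. In all, 885 probe sets (3.44%) reached an unadjusted p under 0.05 in limma, 571 higher and 314 lower. About 5% would do so where nothing differs, so this count is no measure of changed probe sets. It was 535 without saline replicate 1, 1489 without saline replicate 2, 514 without saline replicate 3 and 321 without both arrays numbered 1. Of all detected probe sets, 66 were higher and 78 lower by over 1.5-fold. A probe set at the median standard error of 0.15 needed a difference of 0.81 (1.76-fold) to be called. Camk1g and Smim3, with smaller standard errors, were called at smaller differences.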

How the data were processed

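Striatal RNA of 129P3/J mice given acute morphine or saline was analysed from 6 of 36 Affymetrix whole-genome mouse arrays, each of RNA pooled from 3 animals. The authors deposited 1 linear intensity per probe set and array, normalized between arrays by 1 of 3 methods their paper names. Which one the table holds is not stated in the sources used here. Its linear scale with a floor of 6.69 was taken here to be the model-based index of dChip, which combines matched and mismatched probes by a model fitted over arrays. Median intensity was 119 to 130 on the 6 arrays, and their number limits the precision. All 36 sample columns were read and 0 were left unused; 2 missing values were set to the floor.

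Log2 was taken, and all 36 arrays entered 1 linear model with a mean per group (12 groups), fitted by limma 3.58.1 under R 4.3.3 with empirical Bayes moderation, following the authors' use of strain and treatment over the whole set. P-values were adjusted by the Benjamini-Hochberg method over the 25704 detected probe sets, at 5%. Of these, 44 were above the threshold on acute arrays alone and 42 on saline arrays alone. A single symbol was paired with 21682 of them, several with 561 and none with 3461, by the platform annotation with symbols updated through RefSeq, and genes were named from a single symbol only.

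The 40 gene lists (27 of pathways, 13 of cell type markers) held 644 entries, of which 591 matched the annotation and 508 distinct genes were measured. Members and lists were chosen with earlier results of these data known. Genes were named by rule: the 12 largest rises and falls among called genes whose groups do not overlap, up to 4 called members of each list (the 2 of largest change where none was called), the 6 of smallest p in each direction of the difference between strains, and genes the study names for morphine, of which Mcam and Mat2a are not analysed here. Aff1, Kndc1, Greb1l, Sult1a1, Trp53inp1, other list members and second probe sets were named after their values were seen. The difference between strains was tested in the same model. Promoter windows are from RefSeq (GRCm38.p6). Fits were tested on simulated data with noise drawn independently for each array. Deviations shared by arrays of like treatment and number were not simulated, so that test does not cover them. The alternatives cover the arrays fitted, filter, pseudocount, normalization, moderation, array weights, replicate and random blocks (statmod 1.5.0), threshold, probe set choice and each array in turn. Tables and figures used Python 3.11.15, pandas 2.3.3, numpy 2.4.6 and matplotlib 3.10.9. Withheld genes are not reported here.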

Additional observations from a re-analysis of the deposited data

How the results depend on the processing

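With 3 pools per group and a shared spread, the count of called probe sets was small under most settings and moved with the samples fitted. Against 4 called probe sets, 3 called list genes and 4 called named genes, the numbers were 0, 0 and 0 with only the 6 arrays of 129P3/J, 1, 1 and 1 with the 24 saline and acute arrays, 2, 2 and 2 without a filter, 2, 2 and 2 with equal array medians, 33, 7 and 6 with array weights, and 1, 1 and 1 at an adjusted p under 1% or, chosen after seeing the data, without both arrays numbered 1. With array weights 28 of the 33 were higher and 5 lower. Leaving out each array gave 1 to 4 called probe sets, 1 to 2 list genes and 1 to 3 named genes. The cause was not tested. The other filters, a pseudocount and quantile normalization left 4 called probe sets, moderation with a trend 5. Tsc22d3 passed under 3 of 15 such settings. The difference between strains had 0 called under every setting run.

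The main fit did not pair the samples by replicate number. Saline and acute arrays numbered 1, 2 and 3 had deviations from their group means that correlated at r 0.358, 0.309 and -0.0625 over probe sets. Saline 1 with acute 2 gave -0.407 and saline 2 with acute 1 gave -0.317. Unlike numbers that include a 3 gave -0.0498 to 0.111. Arrays of like number thus varied together for numbers 1 and 2 and not for number 3. A fit with the replicate block kept 4 called probe sets, without Smim3 (adjusted p = 0.101), and 3 called named genes, and a random block of treatment and number (consensus correlation 0.245) also 4.

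The same-sign share of probe sets called in the other strains was 93.7% and became 91.1% with 24 arrays, 89.2% with array weights, 98.9% with the random block, 92.0% with the replicate block, 98.4% at 1%, 89.8% to 95.4% without each array, and 100%, 48.5% and 87.5% on disjoint replicate numbers, chosen after seeing the data.

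Of 2331 values of named genes under the alternatives, 2266 counted as the same, 34 lost the call, 5 gained it and 26 turned sign. The same means direction and side of the threshold kept or, for a ratio of arithmetic means without a p, within the spread between arrays. Only the 4 called genes could lose a call. Of 15 alternatives other than single arrays left out, Fkbp5 kept it in 14, Cdkn1a in 10, Camk1g in 9 and Smim3 in 8. With each of 6 arrays left out they kept it 6, 2, 0 and 1 times. Without each array, the log2 difference ranged from -0.14 to 0.53 for Alas2, -0.13 to 0.0087 for Ifitm3, -0.24 to 0.080 for Kl, -0.046 to 0.15 for Mef2c, -0.41 to 0.64 for Neurod6, -0.26 to 0.037 for Oas1a, -0.040 to 0.094 for Plekhf1, -0.095 to 0.065 for Pllp, -0.46 to 0.028 for Prdm16, -0.38 to 0.048 for Sdf2l1, -0.25 to 0.59 for Slc17a7, -0.28 to 0.15 for Slc4a1, -0.81 to 0.036 for Slc5a7 and -1.26 to 0.39 for Ttr. Without both arrays numbered 1 it was 0.0034 for Ifitm3, -0.17 for Neurod6, 0.042 for Oas1a, -0.0066 for Sgk1 and 0.26 for Slc4a1. With the mean of a gene's probe sets it was -0.098 for Ablim1 and -0.014 for Mef2c. Of 840 list medians 18 moved by more than the spread between arrays.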

Other observations

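Several further groups of genes were measured in 129P3/J without a called member. Cholesterol synthesis and sterol control had 20 of 24 genes higher after acute morphine, with a median of 0.071. In 5 of the 24 the acute arrays lay above all saline arrays and in none below, against 7.41% and 3.47% of all genes. Among the 5 was Fdft1, the squalene synthase, which read 9.38, 9.50 and 9.58 in saline and 9.78, 9.89 and 9.67 after morphine, a difference of 0.29. Dopamine synthesis and clearance had 4 measured genes, 2 higher and 2 lower, with a median of 0.068 and the gene Th lowest at -0.17. The highest was Ddc, the enzyme that makes dopamine from its precursor. It read 7.63, 7.63 and 7.64 in saline and 8.20, 8.04 and 8.01 after morphine, a difference of 0.45. Receptors for GABA and glutamate had 1 of 25 above and 3 below without overlap, where all genes had 7.41% and 3.47%. Grm4, a presynaptic glutamate receptor, and Gabrd, a subunit of extrasynaptic GABA receptors, had the lowest differences at -0.36 and -0.30. Subunits of the mitochondrial respiratory chain, 34 genes, had a median of -0.0024. Of the 34, 1 lay above and 1 below without overlap, beside the same shares of all genes. Cirbp, the cold-inducible RNA-binding protein, read 9.37, 9.22 and 9.12 in saline and 9.49, 9.49 and 9.52 after morphine, a difference of 0.26.

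Of the 20 probe sets with an adjusted p under 0.20 from limma, 19 were higher and 1 was lower. All 20 had the same sign for the mean of the other strains, against 64.3% of all detected probe sets. Arrays of like treatment and number deviated together across strains, so these signs are not independent. In 16 of the 19 higher ones saline replicate 1 was the lowest saline array, a count that was not made over all detected probe sets.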
